A study of Mus musculus with 8 samples.

Results

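Ptbp2 clusters that lay close together on one strand formed 181 groups of 10 or more, and these groups held 3749 clusters, or 17.5% of the 21478 clusters of height 10 or more on chromosomes 1 to 19. The tags came from HITS-CLIP, in which ultraviolet light fixes a protein to the RNA it touches and an antibody recovers the complexes for sequencing. The antibody-bound RNA was that of Ptbp2, and the tissue was the embryonic cortex, taken on embryonic day 18.5 from wild-type mice of the CD1 strain. There were 2 brains and 4 libraries of each. Input RNA, other antibodies and other genotypes were not analysed here. The amount of a transcript and the binding of Ptbp2 to it therefore cannot be told apart in a tag density.

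A tag is one mapped fragment. Tags of all libraries were pooled, tags overlapping by 1 nt or more on one strand were joined into a cluster, and the height of a cluster is the largest number of tags over one of its bases. Clusters of height 10 or more were linked where the gap to the next on the same strand was 20 kb or less. Cluster height and spacing therefore chose the groups, and values of both below are descriptions without a test. A span runs from the first base of a group's first cluster to the last base of its last. Between-cluster tags are the span tags of the group's strand whose midpoint lies in no cluster of height 10 or more.

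Ptbp2, the neuronal polypyrimidine tract binding protein, binds pyrimidine-rich stretches of RNA, many of them in introns of pre-mRNA. It is known as a repressor of exons during neuronal development. Several of its contacts on one transcript can lie near one another, and introns of genes expressed in the brain can be very long, so a run of clusters on one strand may cover a large part of a single pre-mRNA. Neither a genome nor a gene annotation of the files' build, mm9, was used here. Groups are therefore named by position, counted from 1, with no gene, exon or intron assigned and no sequence shown. For the same reason the labelled tissue was not checked against marker genes.

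The pooled list held 3098854 tags, with 228424 to 545387 per library, and brain 1 gave 62.5% of the tags on chromosomes 1 to 19. The 4 libraries of a brain come from one animal, so p-values between brains measure only the spread between libraries of that animal, which may be technical. In each brain the titles mark libraries 1 and 2 with the letter a and libraries 3 and 4 with b, and what the letters stand for is not explained. Over the 181 spans, libraries 1 and 2 of brain 1 were the most alike pair (chi-square per degree of freedom 1.11), and pairs from different brains ranged from 1.93 to 3.84. Over 2893 spans of groups of any size with 40 or more tags, that pair differed only slightly beyond sampling noise (chi-square per degree of freedom 1.06, p = 0.0103). Its libraries were counted separately, and averaging them as 1 changed no call in the 4 shares for which this was run (span, between-cluster, 5′ and opposite-strand). Over the 181 spans, libraries 3 and 4 of brain 1 gave a chi-square per degree of freedom of 1.17. Pairs across the letters in brain 1 gave 1.66 to 1.76, so its 4 libraries were not equally alike. All pairs of brain 2 gave 1.20 to 1.37.

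Groups were long and their lengths varied widely. The median span was 67.2 kb (quartiles 44.9 and 98.8 kb), from 5.15 kb to 440 kb, and the spans summed to 14.9 Mb. A group held a median of 15 clusters (quartiles 12 and 22). Only 63 groups had 20 or more clusters and 8 had 50 or more, so most of the 181 were far smaller than the few at the top. Longer groups held more clusters (Spearman 0.72 over 181 groups), yet cluster density fell with length (Spearman -0.57). Density had a median of 23.8 clusters per 100 kb (quartiles 18.9 and 32.1). These correlations are over groups that share libraries and a minimum of 10 clusters, and are given as descriptions.

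**Figure D1:**
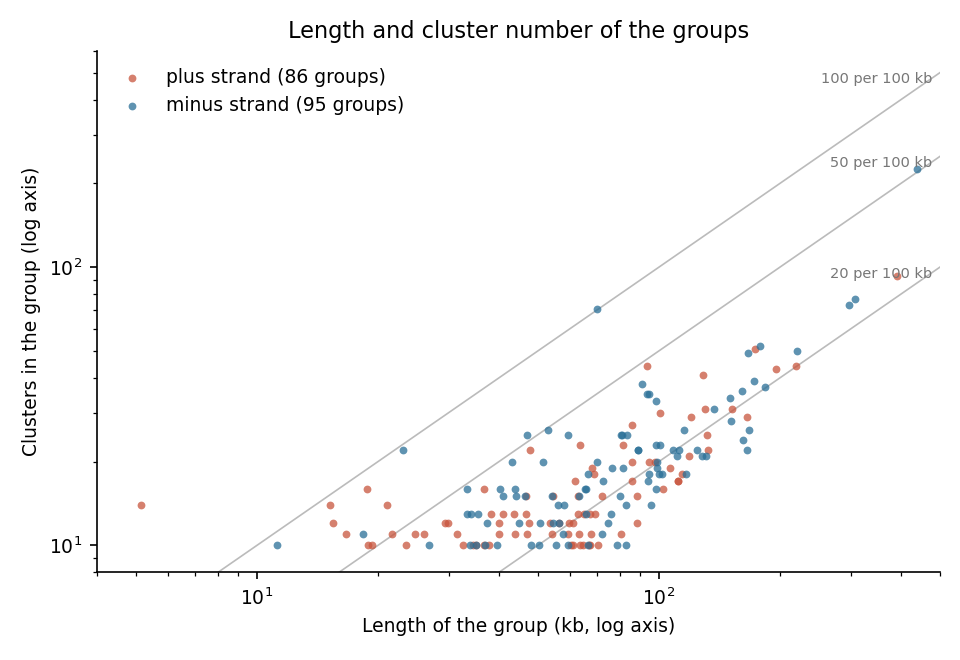
Number of clusters in each of the 181 groups against the length of the group in kb, both on log axes, with one point per group coloured by strand and grey lines at 20, 50 and 100 clusters per 100 kb. Most points lie near or above the line of 20 per 100 kb, and the largest group, at 440 kb and 225 clusters, lies on the line of 50.

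The minimum of 10 clusters did not mark a break in these values. The 28 groups of exactly 10 clusters had a median length of 43.9 kb and a median of 473 span tags, and the 39 groups of exactly 9 had 42.3 kb and 444. Likewise 548 member clusters stood at height 10, and a further 499 clusters of height 9 lay inside the same spans. In 135 of the 181 groups another cluster of the same strand lay within 40 kb, beyond the linking gap.

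Inside the spans, clusters lay closer than the linking gap required. The median gap was 2009 nt, against 3703 nt in the 1096 groups of 3 to 9 clusters. Of 3568 gaps, 18.9% were 200 nt or less, 38.4% were 1000 nt or less and 86.0% were 10 kb or less. Short and long gaps were mixed within a group: the standard deviation of the gaps was above their mean in 116 groups (median ratio 1.09). Member clusters had a median height of 15 and a median width of 50 nt, against 14 and 47 nt in groups of 3 to 9 and 14 and 38 nt for single clusters. Only 5.44% of the member clusters reached a height of 50, and in the median group the fullest cluster held 17.1% of the group's cluster tags.

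The 12 groups with the most clusters show how differently clusters can fill a span. On chromosome 2, minus strand, the largest group (6461055 to 6900698) had 225 clusters at a density of 51.2 per 100 kb with a median gap of 580 nt. The groups that followed it in cluster number were long too but sparser, and chromosome 16, plus strand, 6809381 to 7201718, had 93 clusters at 23.7 per 100 kb. On chromosome 11, minus strand, 36386301 to 36694373, there were 77 clusters at 24.99 per 100 kb, and on chromosome 6, minus strand, 77244300 to 77541943, there were 73 at 24.5. The fifth, on chromosome 1, minus strand, 170286615 to 170356868, held 71 clusters in 70.3 kb, or 101 per 100 kb, although its length was close to that of the median group. The next in cluster number lay on chromosome 14 (minus, 40106904 to 40285224, 52 clusters), chromosome 9 (plus, 27836285 to 28010135, 51) and chromosome 17 (minus, 91250395 to 91471230, 50). The remaining 4 were on chromosome 14 (minus, 124903147 to 125069806, 49 clusters), chromosome 16 (plus, 72154825 to 72374206, 44) and chromosome 12, plus strand, at 110782392 to 110875828 with 44 and at 90920733 to 91116086 with 43. Of these last, the group from 110782392 stood at 47.1 clusters per 100 kb, and the other 3 lay between 20.1 and 29.4.

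The extremes of density differed in length and cluster number. The densest group, on chromosome 17, plus strand, 39980425 to 39985576, packed 14 clusters into 5.15 kb (272 per 100 kb) and held 12610 tags, beside 12465 in the group with the most clusters. Clusters covered 34.2% of its bases, its tallest cluster reached 4545 tags, and one cluster held 48.7% of its cluster tags. The third densest group, on chromosome 19, minus strand, 5796054 to 5819130, had 22 clusters with a median gap of 24 nt (95.3 per 100 kb). The shortest groups beside the one on chromosome 17 were 11.2 kb on chromosome 5 (minus, 112644589 to 112655808, 10 clusters) and 15.2 kb on chromosome 7 (plus, 51599243 to 51614482, 14 clusters). At the sparse end, 10 clusters were spread over 83.0 kb on chromosome 8 (minus, 33777402 to 33860366, 12.1 per 100 kb) and over 78.5 kb on chromosome 10 (minus, 49355197 to 49433724, 12.7). On chromosome 17, minus strand, 90852902 to 91019001, there were 22 clusters over 166 kb (13.2 per 100 kb).

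The groups were spread over all 19 chromosomes and both strands. Chromosome 16 had 19 groups with 425 clusters, which was 33.5% of the chromosome's clusters against 17.5% over all chromosomes, and chromosome 19 had 2. By strand, 86 groups were on plus and 95 on minus, a plus share of 47.5% (exact 95% interval 40.1 to 55.1%). That share was 43.6% in groups of 3 to 9 (40.7 to 46.6%), 37.0% in pairs and 37.6% (36.6 to 38.5%) among single clusters. The interval of the large groups does not reach that of the single clusters. The strands were uneven on single chromosomes, with 11 plus and 1 minus on chromosome 12, 9 and 1 on chromosome 7, and 1 and 9 on chromosome 14. Intervals here and below cover counting error only, since tags and clusters of one transcript are not independent. Neighbouring groups on one strand can be parts of one stretch that the 20 kb gap divided, so groups are not independent either. On chromosome 12, plus strand, for example, groups start at 90079535, 90230966 and 90313359. The strand counts above are therefore descriptions.

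Tags on the other strand were rare throughout. The spans held 2405 tags of the opposite strand against 214087 of the group's own, a median of 1.03% per span (quartiles 0.538 and 1.68%), and 6 spans had none. Per kb, the median group had 0.138 opposite-strand tags and 7.61 between-cluster tags of its own strand. Opposite-strand density was at most weakly related to between-cluster density over the groups (Spearman -0.13). In all, 10 spans held 1 cluster each of the opposite strand, and no group overlapped another group of 10 or more on the other strand. Opposite-strand tags made up 0.951%, 0.832%, 1.05% and 1.11% of the tags in the spans in libraries 1 to 4 of brain 1, and 1.72%, 1.63%, 1.199% and 0.927% in those of brain 2. The brains overlapped, since library 4 of brain 2 lay among those of brain 1 (0.986 ± 0.12% against 1.37 ± 0.37%, SD, n = 4, two-sided exact permutation p = 0.143). The difference was 0.781 points between the libraries of letter a and -0.018 points between those of letter b. In groups of 3 to 9 the opposite-strand share was 1.82% over the 8 libraries against 1.18% here, and 0 of 8 libraries were higher here. The denominator of that share holds the tags that chose the groups, so its test against groups of 3 to 9 is not read as a result. Opposite-strand tags per kb had a median of 0.094 in groups of 3 to 9, of which 29.1% had none, against 3.31% of the large groups. The means were alike, at 0.161 per kb in both.

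Most of the sequence inside a span lay between clusters, and so did the larger part of its tags. Clusters covered 1.49% of the bases of the spans and held 46.5% of their tags, which leaves 114630 between-cluster tags. The median group had 59.3% of its tags between clusters (quartiles 49.6 and 65.4%), and the share ran from 0.817% to 79.0%. Tags that overlapped no other tag were 13.0% of span tags against 38.1% of all tags on chromosomes 1 to 19. The choice of spans by tall clusters favours this contrast. Clusters of height 2 to 4 held 24.0% of span tags and those of height 5 to 9 held 16.5%. A large part of the between-cluster tags therefore lay in smaller pile-ups below the height used here. Groups of 3 to 9 had similar shares, with 14.6% for lone tags, 23.2% for height 2 to 4 and 14.1% for height 5 to 9.

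Between-cluster tags were denser where clusters were denser. Their density followed cluster density over the 181 groups (Spearman 0.65), from a median of 6.11 per kb in the 46 sparsest groups (16.3 clusters per 100 kb) to 10.2 per kb in the 45 densest (42.6 clusters per 100 kb). As a share of span tags they went the other way, from 66.6% to 47.0%. Both measures come from the same tags, and no test was made.

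At the ends of that range stood a few short groups. The chromosome 17 group from 39980425 had 103 between-cluster tags of 12610 (0.817%), at 30.4 per kb, and 0 opposite-strand tags, a count that allows up to 3 tags at this depth. The chromosome 19 group had 186 of 2679 (6.94%). By contrast, the sparsest groups, on chromosomes 8, 10 and 17, had 72.6%, 72.2% and 72.3% of their tags between clusters. The dense chromosome 1 group was in between, with 36.2% between clusters and 19.1 such tags per kb.

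Tags thinned out away from the clusters, to a level slightly above that just beyond the ends of the groups. Outside clusters, the mean over groups in the next 10 kb was 4.57 tags per kb on the 5′ side and 4.97 on the 3′ side. Between-cluster tags stood at 16.1 per kb within 30 nt of the nearest cluster edge, 22.3 at 30 to 100 nt, 13.9 at 100 to 300 nt and 9.25 at 300 to 1000 nt. They fell to 6.57 per kb at 1000 to 3000 nt and 5.37 at 3000 to 10000 nt, and these last 2 classes held 29.8% and 22.8% of all between-cluster tags. The dip next to the edge has a bound by construction, because a tag that overlaps a cluster is joined to it. CPM here are tags per 1000000 tags of the library on chromosomes 1 to 19. Each step from 30 nt outward was seen in both brains: mean CPM per kb went from 8.17 ± 0.58 to 1.99 ± 0.14 for brain 1 and from 6.74 ± 0.83 to 1.59 ± 0.13 in brain 2 (SD, n = 4). Groups of 3 to 9 gave the same order at lower levels, from 16.8 tags per kb at 30 to 100 nt to 3.70 at 3000 to 10000 nt.

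**Figure D2:**
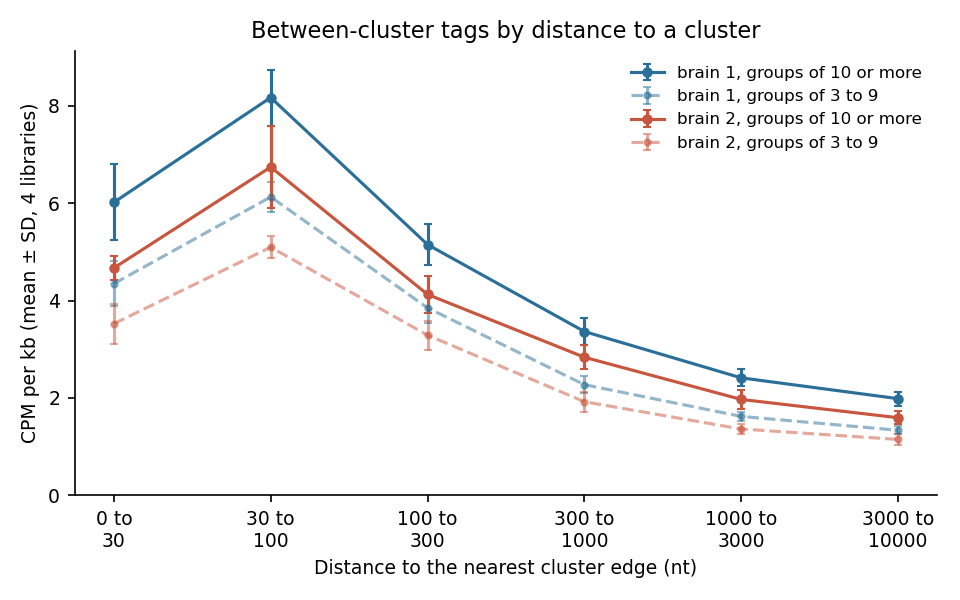
Between-cluster tag density in CPM per kb (mean ± SD of 4 libraries per brain) against the distance in nt to the nearest edge of a cluster of height 10 or more, for groups of 10 or more (solid) and of 3 to 9 (dashed). In both brains the density is highest at 30 to 100 nt, 8.17 and 6.74 CPM per kb in the large groups, and falls to 1.99 and 1.59 at 3000 to 10000 nt.

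Beyond the ends of the groups, tags of the same strand were fewer but did not vanish, and more of them lay downstream. Outside clusters, the median group had 7.61 tags per kb inside, 4.4 in the 10 kb on its 5′ side and 4.7 in the 10 kb on its 3′ side, and 133 groups had both flanks below their inside. The rule bars a cluster of height 10 from the first 20 kb on either side, which limits the density there. At 20 to 50 kb the medians were 2.63 tags per kb upstream (quartiles 0.40 and 5.17) and 4.17 downstream (2.10 and 6.07), and the downstream flank was the denser in 110 groups and the upstream in 71. At 50 to 100 kb they were 2.34 and 3.22. A flank window can reach into a neighbouring group of the same strand, since 135 groups had another such cluster within 40 kb. Some tags then count for more than 1 group, so the groups in these tallies are not independent. Opposite-strand tags stood at medians of 0.10 to 0.18 per kb in all of these flanks. Groups of 3 to 9 also had more same-strand tags downstream. Their medians were 1.70 tags per kb upstream and 2.17 downstream at 20 to 50 kb, and 1.04 and 1.64 at 50 to 100 kb.

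The direction along the strand was not used by the rule, and the difference between the flanks held in each library. The ratio of the 3′ to the 5′ flank at 20 to 50 kb, each over all 181 groups, was 1.28 ± 0.01 in brain 1 and 1.23 ± 0.06 in brain 2 (SD, n = 4). It lay above 1 in 8 of 8 libraries, from 1.16 to 1.302. In brain 1 the flanks held 1.21 ± 0.07 CPM per kb upstream and 1.54 ± 0.09 downstream, and in brain 2 they held 1.02 ± 0.05 and 1.25 ± 0.10.

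**Figure D3:**
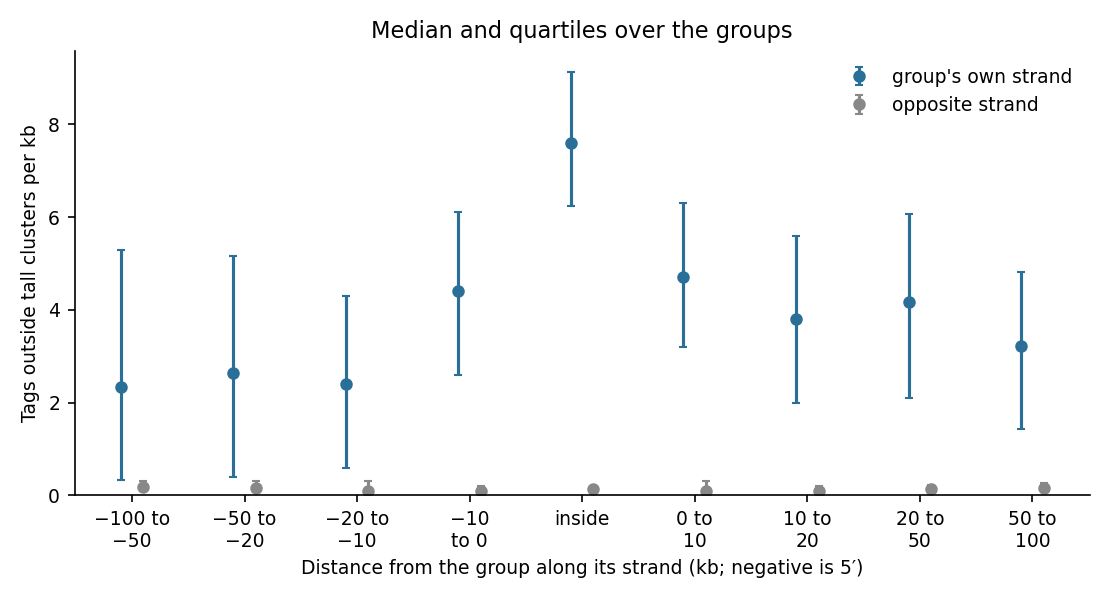
Tags outside clusters of height 10 or more per kb, inside the groups and in windows out to 100 kb on the 5′ (negative) and 3′ sides, as median and quartiles over 181 groups, on the group's own strand (blue) and the opposite strand (grey). The own strand peaks inside at 7.61 per kb and is higher at 20 to 50 kb downstream (4.17) than upstream (2.63), while the opposite strand stays at or below 0.18.

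Along a span, between-cluster tags declined only slightly from the 5′ to the 3′ end. The share of them in the 5′-most 50% of the span's length, called the 5′ share below, had a median of 52.2% over the groups (quartiles 46.4 and 57.7%). It was above 50% in 110 groups and below in 71. Cut into 10 equal stretches from the 5′ end, the pooled tags gave 10.6%, 10.3%, 10.6%, 10.1% and 10.6% in the first 5 and 9.73%, 9.59%, 9.10%, 9.41% and 9.98% in the last 5. The step lay near the middle of the span, and no steady slope ran from end to end. An exponential decline fitted to the tag positions of each group left a median of 95.6% of the starting density at the 3′ end.

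**Figure D4:**
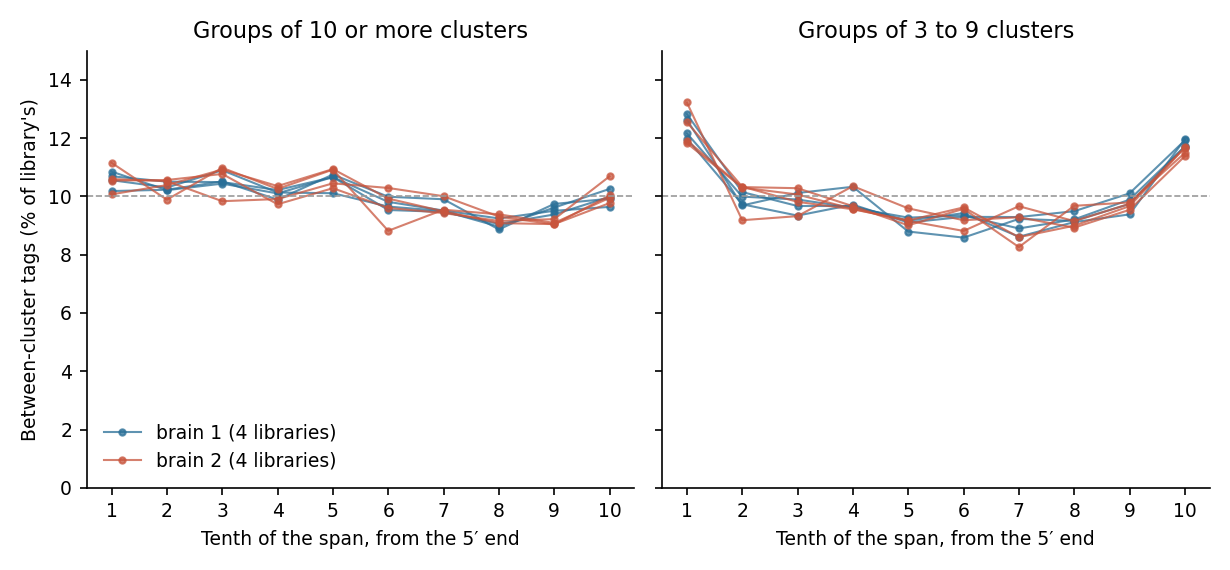
Percent of a library's between-cluster tags in each of 10 equal stretches of the span, counted from the 5′ end, for groups of 10 or more (left) and of 3 to 9 (right), with one line per library coloured by brain and a dashed line at 10%. In the large groups the pooled first 5 stretches hold 10.1 to 10.6% each and the last 5 hold 9.10 to 9.98%, and in groups of 3 to 9 both outer stretches are raised, at 12.4% and 11.7%.

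Every library placed the larger part of these tags toward the 5′ end. The 5′ share over all 181 groups was 52.3%, 52.6%, 52.0% and 51.6% in libraries 1 to 4 of brain 1 and 53.2%, 51.9%, 52.7% and 51.3% in those of brain 2. The brains overlapped and did not differ beyond the spread between libraries (52.1 ± 0.42% against 52.3 ± 0.83%, SD, n = 4, two-sided exact permutation p = 0.771). Groups of 3 to 9 had 51.1 ± 0.58% over the 8 libraries, against 52.2 ± 0.62% in the groups of 10 or more. The difference of 1.05 ± 0.80 points was positive in 7 of 8 libraries (two-sided exact sign-flip permutation p = 0.0156, and 0.0156 adjusted over 2 such shares). The other share in that adjustment was the opposite-strand share, whose own test is not read as a result. The 8 libraries come from 2 brains, so this p measures only the spread between libraries. The difference fell to 0.371 points with each group weighted equally (exact sign-flip p = 0.414) and to 0.263 with repeated positions of a library counted once and the groups called again (p = 0.305), and it was -0.549 with clusters of height 20 or more (p = 0.492).

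Single groups differed far more than the average, in both directions. The exact 95% interval of the 5′ share lay above 50% in 71 groups, below it in 41 and across it in 69. Both brains put the share on the same side in 145 groups, 87 above and 58 below. In the other 36 the brains were on opposite sides or a brain stood at exactly 50%. Over the 181 groups the shares measured in the brains had a Spearman correlation of 0.74. They share the spans, which were chosen on both brains together, so this is a description.

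The 5′ share of the named groups covered most of that range. The highest were 78.1% on chromosome 3 (minus, 80459802 to 80525837; 80.2% in brain 1 and 73.0% in brain 2), 75.2% on chromosome 5 (plus, 111535851 to 111570940) and 73.9% on chromosome 16 (minus, 75222705 to 75241088). On chromosome 12, the group from 110782392 had 70.4%, with 70.9% in brain 1 and 69.3% in brain 2. Among the largest groups, chromosome 16 from 6809381 had 62.2% (exact interval 60.5 to 63.9%), falling from 13.7% of its between-cluster tags in the first of the 10 stretches to 5.14% in the last. The chromosome 2 group from 6461055, with 225 clusters, had 51.5% (50.1 to 52.8%).

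Other groups had most of their between-cluster tags toward the 3′ end. The lowest 5′ share was 1.61% in the chromosome 19 group from 5796054, whose last 3 stretches held 22.6%, 45.7% and 29.0% of 186 tags. The next lowest were 30.9% on chromosome 6 (minus, 135663605 to 135699086) and 31.1% on chromosome 7 (plus, 98244358 to 98307318). The sparsest group, on chromosome 8, stood at 31.1% as well. On chromosome 14, the group from 124903147 had 43.9% (41.2 to 46.7%).

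The length of the group did not order the 5′ share (Spearman 0.03 over 181 groups). Pooled, it was 49.5% in the 54 groups under 50 kb, 53.6% in the 83 of 50 to 100 kb, 51.8% in the 38 of 100 to 200 kb and 51.8% in the 6 longer ones. Libraries above 50% numbered 2, 8, 7 and 8 of 8 in these classes. The groups of 50 to 100 kb thus held the clearest decline, with 57 above and 26 below 50%, and the shortest held none, with 27 and 27. By strand, 54 of 86 plus groups and 56 of 95 minus groups were above 50%.

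Clusters themselves were most frequent at both ends, which a span that starts and ends on a cluster produces. The first and last of the 10 stretches held 14.5% and 14.8% of the clusters, and those between held 7.50 to 10.8%. The first 5 held 2000 clusters and the last 5 held 1749, and median heights were 14 or 15 in each. The 5′ share of between-cluster tags was not adjusted for this placement of clusters, near which such tags were denser.

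Groups were also called from one brain and measured in the other, in libraries that had not chosen them. With the height lowered to 6 for brain 1 alone, 288 groups were called, and in brain 2 their 5′ share was 52.6 ± 0.28% (SD, n = 4) against 51.5 ± 0.81% in groups of 3 to 9 called the same way. With a height of 4 for brain 2 alone, 284 groups were called, and in brain 1 the share was 53.0 ± 0.45% against 50.2 ± 0.42%. It was higher in the large groups in 4 of 4 libraries both times. Between-cluster tags made up 56.3 ± 1.38% of the span tags in brain 2, against 55.9 ± 0.95% in groups of 3 to 9 (higher in 2 of 4 libraries), and 64.0 ± 0.90% against 63.1 ± 1.25% in brain 1 (4 of 4). Of the groups called in brain 1, 73.3% overlapped one called in brain 2, and 75.7% of those called in brain 2 overlapped one called in brain 1.

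Both brains contributed to nearly every cluster. Of the 3749 member clusters, 3710 (99.0%) had tags of both brains and 26.99% had tags of all 8 libraries, against 98.5% and 22.5% in groups of 3 to 9. Tags of both brains were in 99.3% of clusters in pairs and 99.3% of single clusters. The minimum height of 10 in pooled tags makes such shares high in any group. Tags at a position already seen in the same library were 39.5% of the tags in member clusters (32.5 to 47.4% by library) and 11.7% of between-cluster tags, and no source used here says whether the authors collapsed repeated reads. With each position counted once per library before clusters were called, 82 groups of 10 or more were found.

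The share of span tags between clusters was lower in each library of brain 2 than in any of brain 1, but the difference did not pass after adjustment. The between-cluster share was 56.1%, 56.0%, 53.3% and 54.0% in libraries 1 to 4 of brain 1 and 51.7%, 51.5%, 52.0% and 48.0% in those of brain 2. The difference was -4.07 points (54.8 ± 1.42% against 50.8 ± 1.86%, SD, n = 4). Groups of 3 to 9 showed a like gap without overlap, 53.1 ± 1.27% against 49.4 ± 1.47%. The two-sided exact permutation p of 0.0286 is the smallest that 4 against 4 can give, and it was 0.143 adjusted over the 5 shares compared. The split rests on the height in the pooled tags, of which brain 1 gave the larger part, and with brain 1 thinned to the same depth and groups called again the difference was -6.09 points. At full depth it was -4.49 points within letter a and -3.66 within letter b, and it was -2.65 points (exact permutation p = 0.0286) without the chromosome 17 and 19 groups named above. Without library 4 of brain 2 and with groups called again it was -3.26 points (exact permutation p = 0.0571).

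The share of a library's tags inside the spans did not pass the test. Pile-ups in the pooled tags chose the spans, and brain 1 gave 62.5% of those tags. The test therefore cannot separate a difference between the brains from the rule. It was 8.01%, 8.004%, 7.36% and 7.30% in brain 1 and 6.28%, 6.06%, 6.98% and 7.85% in brain 2, so library 4 of brain 2 lay within the range of brain 1 (7.67 ± 0.39% against 6.79 ± 0.81%, exact permutation p = 0.114). Within letter a brain 2 was lower by 1.84 points, and within letter b it was higher by 0.087. At equal depth of the brains and with groups called again, the difference in this share was -0.381 points (exact permutation p = 0.171), against -0.875 at full depth. At full depth the plus strand took 42.4 ± 0.31% of the span tags in brain 1 and 43.5 ± 0.64% in brain 2 (exact permutation p = 0.0571).

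Span by span, 14 of the 181 groups (7.73%) passed an adjusted p of 0.05 between the brains, where 4.01% of the 1620 spans tested did (limma voom, Benjamini-Hochberg over all spans). All 181 passed the filter on low counts. Of these 14, 12 were lower and 2 higher in brain 2, while 44 of the 65 spans that passed in all were higher there. Some of the 12 lie near one another on the plus strand, from 6513169 and 6809381 on chromosome 16 and from 27599538 and 27836285 on chromosome 9. Whether such neighbours belong to one transcript was not tested, so the calls may not be independent. The median log2 change was -0.11 over the groups and -0.03 over all spans tested. Of the 181 groups 40 were higher in brain 2, and of all spans tested 768 of 1620 were. Brain 1 gave 62.5% of the tags whose pile-ups chose the groups, which favours spans higher in brain 1. These contrasts in direction are therefore descriptions. In 23 groups (12.7%) the libraries of the brains did not overlap, beside 8.7% of all spans tested. Most of those other spans held fewer tags: of 187 smaller groups and single clusters with at least 305 tags, the least of any large group, 19 (10.2%) passed, 4 of them lower in brain 2. Scaling by library totals in place of a trimmed mean moved the median of all spans to -0.15 and that of the groups to -0.23, and 17 groups then passed, 15 of them lower. At equal depth of the brains and with groups called again, 10 of 85 groups passed, 8 of them lower in brain 2. The median log2 change was then -0.15 over the groups and -0.02 over all spans.

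The 2 groups that were higher in brain 2 held in each of the 13 alternatives run on these spans, the 8 left-out libraries among them. On chromosome 17, the densest group (39980425 to 39985576) had 3126, 3210, 4054 and 4201 scaled CPM in libraries 1 to 4 of brain 1 and 5593, 5483, 5014 and 5910 in those of brain 2. All of brain 2 was above all of brain 1, a log2 change of 0.59 ± 0.05 (SE, limma voom, adjusted p = 2.21e-12). Within brain 1, libraries 1 and 2 were lower than libraries 3 and 4. On chromosome 2, minus strand, 77730754 to 77777820, a group of 25 clusters over 47.1 kb had 323, 326, 282 and 271 scaled CPM in brain 1 and 480, 558, 516 and 468 in brain 2. No library overlapped the other brain's, and the log2 change of 0.75 ± 0.10 (limma voom, adjusted p = 4.65e-07) was 0.78 with repeated positions counted once. Of its tags 46.3% lay between clusters, and its fullest cluster held 19.8% of the cluster tags.

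Among the 12 that were lower in brain 2, the largest change was on chromosome 6, minus strand, 32372573 to 32442886, a group of 20 clusters with 69.1% of its tags between them. It had 410, 457, 413 and 449 scaled CPM in brain 1 and 323, 303, 316 and 276 in brain 2, with no overlap and a log2 change of -0.50 ± 0.10 (limma voom, adjusted p = 0.00198). It passed in 13 of 13 alternatives. The group on chromosome 10, plus strand, 90200406 to 90267576, changed by -0.47 ± 0.13 (adjusted p = 0.0290), but its libraries overlapped, it passed in 5 of 13 alternatives and it was lost with 7 of the 8 libraries left out in turn.

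Changes of -0.43 ± 0.10 on chromosome 16 (minus, 75309912 to 75408454, adjusted p = 0.00852) and -0.42 ± 0.09 on chromosome 3 (plus, 118137178 to 118237985, adjusted p = 0.00302) each passed in 12 of 13 alternatives. Both were lost without library 3 of brain 2 (limma voom, adjusted p = 0.0649 and 0.0504). The chromosome 3 group with the highest 5′ share, from 80459802, fell by 0.41 ± 0.12 on the log2 scale (adjusted p = 0.0443) and was lost with any library left out. The large chromosome 16 group from 6809381 had 1847, 1792, 1823 and 1639 scaled CPM in brain 1 and 1292, 1571, 1433 and 1456 in brain 2. Its change of -0.30 ± 0.06 (limma voom, adjusted p = 0.000424) passed in 13 of 13 alternatives.

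The largest group, from 6461055 on chromosome 2, had 4364 ± 154 scaled CPM in the libraries of brain 1 (SD, n = 4) and 3942 ± 63.3 in those of brain 2. Its change of -0.15 ± 0.03 was small next to the others (limma voom, adjusted p = 0.00728). The call was lost without library 1, 2 or 3 of brain 1 and with repeated positions counted once, for which the change was -0.06 and the adjusted p = 0.346.

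**Figure D5:**
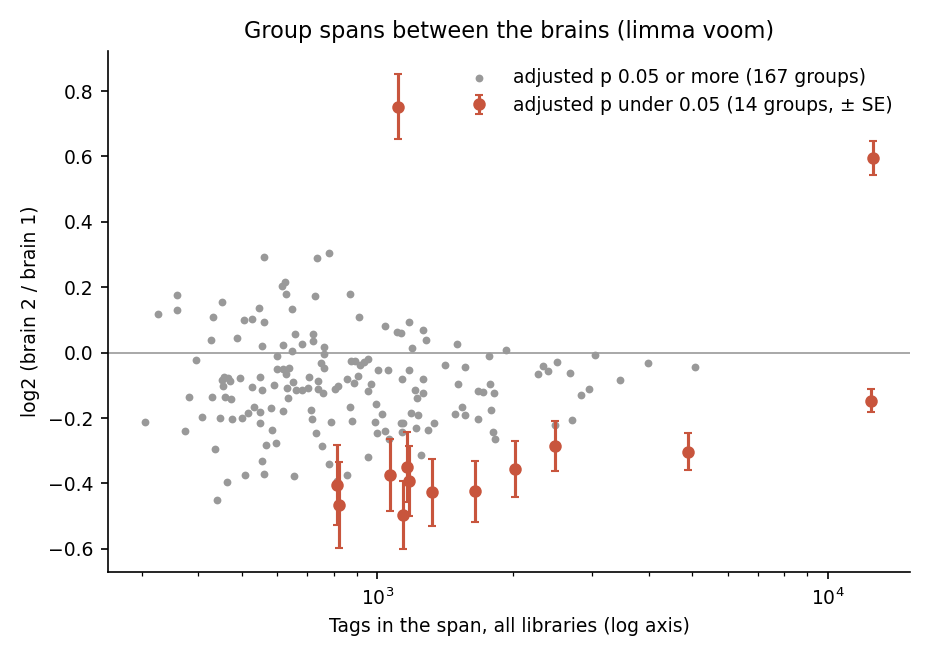
Log2 ratio of brain 2 to brain 1 for each of the 181 spans (limma voom) against the number of tags in the span, on a log axis, with the 14 spans past an adjusted p of 0.05 in red with their SE. The red points above 0 are the groups on chromosome 17 (0.59) and chromosome 2 (0.75), and the 12 below 0 run from -0.15 to -0.50.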

How the data were processed

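The deposited list gave 1 row per mapped tag, with a library code that was matched to the sample titles. The authors' score column held 0 in each deposited row and was not used. Bowtie, mm9 and mm8 appear in the submitters' processing notes, with no version of the aligner. The last tag of chromosome 1 ended at 197194446, a position that mm9 holds, and coordinates are given as mm9. Per the labels' protocols reads opened with 4 degenerate bases and a G, and how repeated or multiply mapping reads were handled was not given in the sources used.

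The groups, lists and tests were chosen with earlier results of these data known. Sites are named by rule: the 12 groups with the most clusters, the 3 densest, sparsest, longest and shortest, the 3 with the highest and lowest 5′ share among groups with 100 or more between-cluster tags, and up to 5 each way between the brains. The groups from 6809381 and 6461055 fall under the first of these, and their brain values were added after they were seen. Tags were assigned by midpoint. Python 3.11.15 with numpy 2.4.6, pandas 2.3.3 and scipy 1.17.1 counted tags and ran exact permutation tests, whose two-sided p counts the splits with at least as large an absolute difference, and intervals are Clopper-Pearson 95%. Tags per span and library, an input of whole tags in place of a count table, went to limma 3.58.1 (voom, pseudocount 0.5, R 4.3.3). Spans needed 26.5 CPM, which is 10 tags at median depth, in 4 libraries and 15 tags in all. Scaled CPM use trimmed-mean factors, with 30% of the log ratios and 5% of the levels trimmed. On simulated tags over 1620 spans the test called 82% of 2-fold higher and 58% of 0.5-fold spans, and 9 of 1420 unchanged ones. The simulated libraries were independent, with 1 fixed level of spread beyond sampling noise for all spans. These rates therefore do not cover the unequal likeness of the real libraries. With the level of each span taken out, same-numbered libraries of the brains correlated at -0.167 to -0.080 over the spans, so the numbers do not pair them. These are not correlations of the span levels, which were alike across libraries.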

Additional observations from a re-analysis of the deposited data

Results flagged for a closer look

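Of 76 sets of 4 libraries examined (the shares and the named or called spans, by brain), 4 had 1 library apart from the other 3 by Dixon's criterion. Chance flags about 1 in 20 such sets, and these sets share libraries. Each time it was library 4 of brain 2, the shallowest, with 228424 tags. Its between-cluster share was the lowest at 48.0%. Its CPM was the highest of its brain in the span on chromosome 17 from 91250395, at 1193, in the span on chromosome 12 from 90920733, at 874, and in the span on chromosome 17 from 39980425, at 6532. These CPM are not scaled by the trimmed mean. In scaled CPM library 4 was not apart in any of the 3 spans: it had 1079, 790 and 5910, and library 3 was instead the one apart, as the lowest, in the spans from 91250395 (917) and 90920733 (698).

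On chromosome X, which the rule leaves out, the same linking gave 2 groups of 10 or more clusters. They lay on the plus strand from 20216949 to 20258629, with 10 clusters and 138 cluster tags over 41.7 kb, and on the minus strand from 140292486 to 140314937, with 12 clusters and 297 cluster tags over 22.5 kb.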

How the results depend on the processing

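The number of groups followed the thresholds: 975 at height 5, 14 at height 20, 109 with gaps of 10 kb, 546 with 5 or more clusters, 82 with repeated positions counted once and 85 with brain 1 thinned to match brain 2, and 104 to 152 with 1 library left out. The span share differed between brains by 0.031 points at height 20 (exact permutation p = 0.886), against -0.875 in the main setting, and by -1.02 to -0.456 with libraries left out. The opposite-strand difference was -0.00047 points at height 20, and 0.232 to 0.483 with libraries left out. The between-cluster difference was -3.22 points at height 5 (exact permutation p = 0.0571), and -5.22 to -3.26 with libraries left out. It was -3.67 with libraries 1 and 2 of brain 1 averaged as 1 (exact permutation p = 0.0286, or 0.0571 if the smaller tail is doubled). With the replicate block (an exact paired sign-flip) it was -4.07 with p = 0.125, the smallest 4 pairs can give. The difference in 5′ share between brains was -0.031 points without the largest group, an alternative added after the data were seen, and -0.869 to 0.570 with libraries left out.

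The difference in 5′ share from groups of 3 to 9 was 0.371 points with groups weighted equally, -0.549 at height 20, 0.728 with gaps of 10 kb (exact sign-flip p = 0.117), 0.263 with positions counted once and 0.267 with brain 1 thinned (p = 0.328), and 0.509 to 2.06 with libraries left out, where 3 of 8 passed. Group spans called between brains numbered 3 at height 20, 4 with gaps of 10 kb, 33 with gaps of 50 kb, 22 with 5 or more clusters, 5 with positions counted once, 31 without the count filter, 12 with the replicate block, and 6 to 9 with libraries left out and groups called again. The causes were not tested. Depth limits the groups themselves, since fewer tags leave fewer clusters of height 10.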
